A study of Mus musculus with 8 samples.

Results

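Translation initiation and elongation factors are the soluble proteins that load ribosomes onto mRNA and move them along it. They were taken as the genes of the table whose symbol begins with Eif1 to Eif6 or with Eef1 or Eef2, leaving out the sex-linked copies of the eIF2 gamma subunit, the eIF2 kinases and the eIF4E transporter. This gave 60 of 14457 genes, all protein-coding in GENCODE M21. The data are bulk RNA-seq of cortical bone from the femoral shaft, taken 7 days after birth. Both groups carried Col2.3kb-Cre, in which a piece of the Col1a1 promoter drives the recombinase in osteoblasts. The control group was Col2.3kb-Cre; Slc26a2 fl/+ (4 libraries), so it was itself heterozygous for the floxed allele, and the CKO group was Col2.3kb-Cre; Slc26a2 fl/fl (4 libraries). Slc26a2 encodes a sulfate transporter, and the study asked which molecular changes go with disturbed osteoblast maturation when it is deficient. Whether the libraries are from different animals is not in the labels, and the p-values below therefore describe the spread among libraries, which may be technical.

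Initiation begins when eIF2 brings the initiator tRNA to the small ribosomal subunit, where eIF1, eIF1A, eIF5 and the large eIF3 complex assemble. The eIF4F complex binds the mRNA cap and unwinds the leader, and the subunit scans to the start codon. During elongation eEF1A delivers each aminoacyl-tRNA, the eEF1B complex recharges eEF1A with GTP, and eEF2 moves the ribosome forward. Osteoblasts secrete large amounts of collagen and depend on this machinery, but so do all other cells of the shaft. In bulk RNA, fewer cells of a type and less RNA per cell cannot be told apart.

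Levels are given in the authors' FPKM, a read abundance corrected for transcript length and for library size, and the depth behind them is unknown. Slc26a2 ranged from 4.37 to 7.49 FPKM in control and from 0.706 to 2.93 FPKM in CKO, so every CKO library lay below every control library. Other properties differed too. The FPKM total was 352283 to 379669 in control and 431612 to 598419 in CKO, with the 2 highest sums in CKO replicates 3 and 4. CKO replicate 4 had 155 genes listed at 0, against 5 to 31 elsewhere, and 2.92% of its FPKM came from mitochondrially encoded genes, against 9.13% to 14.8% elsewhere. The summed FPKM of 8 osteoblast markers was 28987 to 36697 in control and 5841 to 31770 in CKO, with none of the 8 at 0 in any library. That of 8 neutrophil markers was 788 to 3913 in control and 6108 to 27469 in CKO. That of the 7 erythroid markers in the table was 3834 to 13022 and 17963 to 70779. The sums of 6 B lineage, 5 endothelial, 4 cartilage and 4 Y-linked genes were 51.1 to 319, 150 to 188, 35.2 to 57.5 and 0 to 42.2 in control, and 163 to 423, 70.9 to 129, 13.4 to 69.7 and 0 to 17.5 in CKO. The part of these differences in the results on translation factors was not tested.

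Of the 60 genes, 59 had at least 1 FPKM in at least 4 libraries and were tested with the other genes kept, 12748 in all, by limma on log2(FPKM + 1). A single gene, Eef1b2, passed an adjusted p of 0.05 (Benjamini-Hochberg over all genes tested). It rose, and none fell, where 3.88% of all genes tested passed as higher and 0.651% as lower. At an unadjusted p under 0.05, 23 of the 59 were higher in CKO, a share of 39.0%, where 15.9% of all genes were, and 1 was lower, where 9.45% were. In 21 of the 59, or 35.6%, every CKO library lay above every control library, as in 12.7% of all genes. In 2 genes, Eif4ebp2 and Eif4g3, every CKO library lay below, as in 6% of all genes. The median log2 fold change was 0.46 for the factors and 0.01 for all genes tested, with 50 of 59 above 0, where 51.1% of all genes were. With every library rescaled to the same FPKM total, the median of all genes moved to -0.37 and that of the factors to 0.03, which left 30 of 59 above 0, where 25% of all genes were, 6 genes with all CKO libraries above (10.2%, where 3.73% of all genes had this) and 4 with all below (6.78%, where 17.8% did). The distance between both medians was 0.45 as deposited, 0.46 with median-of-ratios scaling, 0.39 with equal totals and 0.17 with quantile normalization. Y-linked genes were at 0 in control replicate 1 and CKO replicates 1 to 3. Among those 4 libraries the medians of the factors and of all genes were 0.31 and 0.14, and among the 4 libraries with Y-linked expression they were 0.36 and -0.24, with 1 library in a group each time. In the authors' deposited table, 28 of the 60 had a p-value under 0.05 and a log2 fold change above 0, where 16.2% of all 14457 genes did, and 2 had one below 0, where 12% did.

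**Figure D1:**
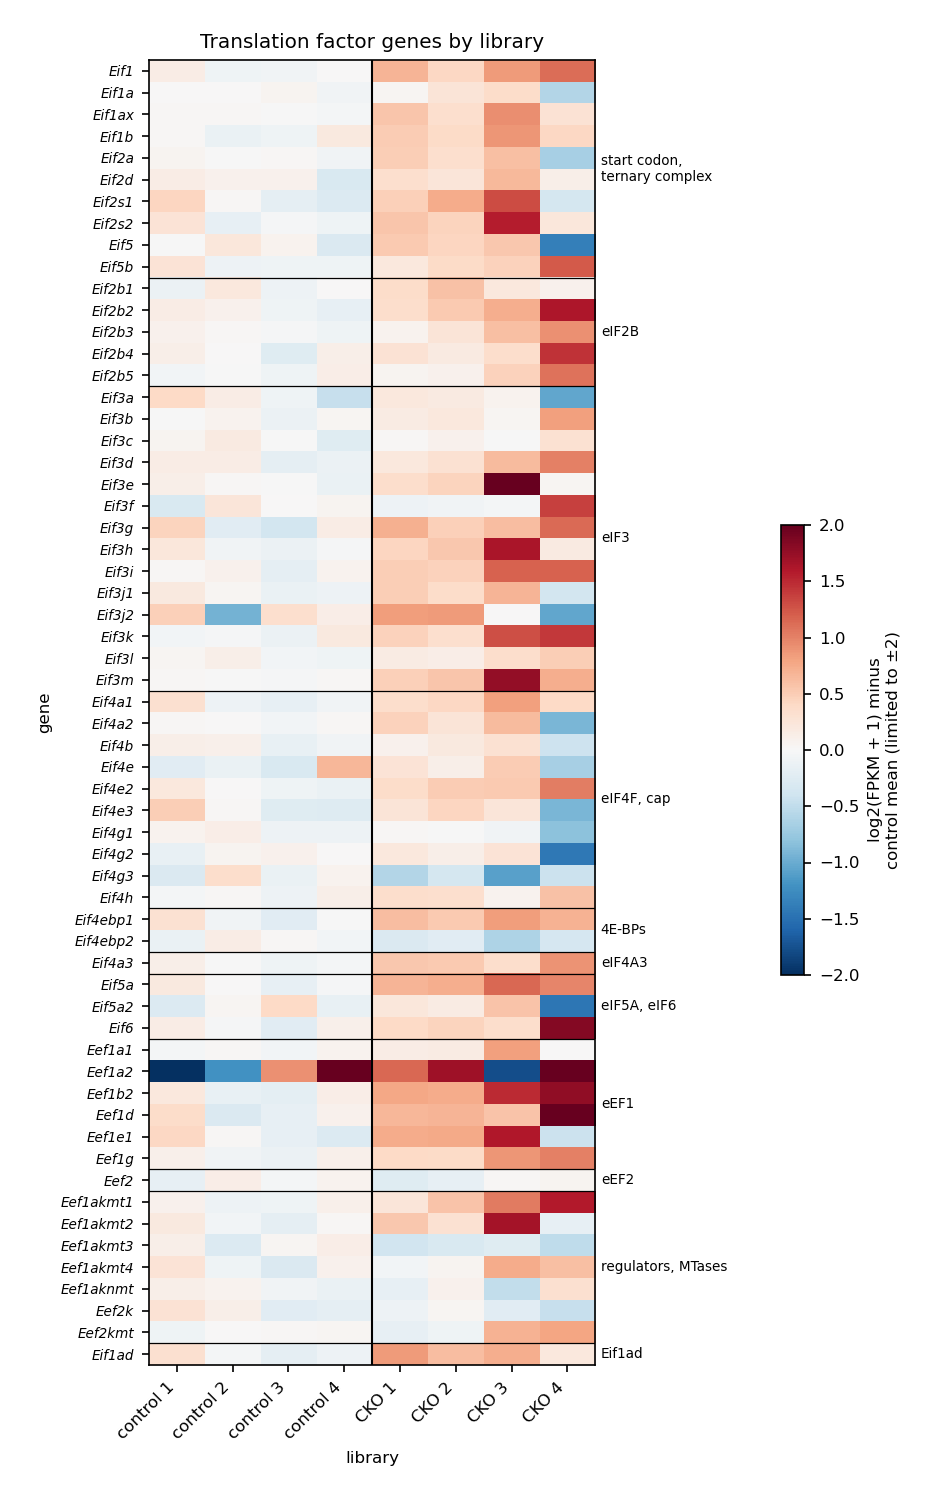
Each row is a translation factor gene, grouped by role, and each column a library; colour gives log2(FPKM + 1) minus the mean of the 4 control libraries, limited to ±2. CKO replicates 1 and 2 look alike, while CKO replicates 3 and 4 stand out in different genes, such as Eif3e at 335 FPKM in replicate 3 and Eef1d at 337 FPKM in replicate 4.

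Elongation factor 1 held the gene that rose. Eef1b2 (ENSMUSG00000025967, GRCm38 chromosome 1, 63176825 to 63180486, plus strand) encodes the eEF1B subunit beta, which exchanges GDP for GTP on eEF1A. Its levels were 169, 132, 127 and 160 FPKM in control replicates 1 to 4 and 249, 245, 414 and 500 FPKM in CKO replicates 1 to 4. Every CKO library lay above every control library, and CKO replicates 3 and 4 were the highest. The means were 147 ± 20.9 and 352 ± 126 FPKM (SD, n = 4 each), a log2 fold change of 1.2 with an SE of 0.28 by limma (adjusted p = 0.0453). The call ended with each other scaling, at a log2 fold change of 1.21 with median-of-ratios scaling (limma adjusted p = 0.0828), 0.72 with equal totals (0.0795) and 0.49 with quantile normalization (0.124). It ended too with the length trend removed (0.94, adjusted p = 0.153) and with the replicate number as a block (0.0592). It was also lost without control replicate 2, 3 or 4 (limma adjusted p = 0.149, 0.179 and 0.117) and without CKO replicate 1, 2 or 3 (adjusted p = 0.0603, 0.0551 and 0.108), and held without control replicate 1 (0.0473) or CKO replicate 4 (0.0305). Without control replicate 2, 3 or 4, or without CKO replicate 1, 2 or 3, none of all 12748 genes tested passed. The Eef1b2 call was lost as well with the mean level of the neutrophil, erythroid and B lineage markers (limma adjusted p = 0.852) or of the Y-linked genes (0.219) as a covariate. With either covariate none of all 12748 genes tested passed. The neutrophil and erythroid sums did not overlap between the groups, so the first of these fits cannot tell genotype and marrow markers apart.

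The other eEF1B subunits had higher CKO means but did not pass. Eef1d, the delta subunit, had 62.4, 39.3, 42.7 and 51.2 FPKM in control and 76.7, 77.3, 72.1 and 337 FPKM in CKO. The groups did not overlap, and CKO replicate 4 lay far above the other libraries (CKO mean 141 ± 131 FPKM, SD, n = 4). Limma gave a log2 fold change of 1.17 (SE 0.45, adjusted p = 0.140) with all libraries and called the gene without CKO replicate 4, at 0.63 (SE 0.18, adjusted p = 0.0462). Eef1g, the gamma subunit that anchors the complex, had 158 to 185 FPKM in control and 224 to 347 FPKM in CKO, a log2 fold change of 0.66 (SE 0.23, limma adjusted p = 0.105), which was -0.03 with quantile normalization. Eef1e1, a small protein of the multi-synthetase complex, had 2.71 to 4.95 FPKM in control and 2.32 to 12.6 FPKM in CKO, and these ranges overlapped. All 6 genes of the eEF1 group had a log2 fold change above 0, while 5 of 6 did with equal totals and 4 of 6 with quantile normalization.

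The subunit these proteins act on was the most abundant factor. Eef1a1, the general form of eEF1A, had 2600, 2725, 2574 and 2790 FPKM in control and 2957, 2985, 4735 and 2696 FPKM in CKO. Its levels overlapped between groups, and CKO replicate 3 was the highest. By limma the log2 fold change was 0.29 (SE 0.32, adjusted p = 0.602) and fell below 0 with equal totals (-0.19) and quantile normalization (-0.30). Eef1a1 alone made up 31.9% to 44.6% of the summed FPKM of the 60 genes. Together the 60 genes made up 1.66% to 1.8% of all FPKM in control and 1.47% to 1.77% in CKO. These shares overlapped. Without Eef1a1 and Eef2 the shares were 0.719% to 0.795% in control and 0.830% to 0.864% in CKO. By this measure, which equal totals do not alter, each CKO library lay above each control library. Leaving out these genes was not planned, and the levels of both overlapped between the groups. No such share was taken for other sets of genes.

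Eef1a2 (ENSMUSG00000016349, GRCm38 chromosome 2, 181147653 to 181157014, minus strand) is the form that replaces Eef1a1 in mature skeletal muscle and neurons. Its levels were 0.297, 1.68, 10.7 and 36.1 FPKM in control and 12.9, 19.3, 0.823 and 109 FPKM in CKO. No other factor varied as much, and the ranges of the groups overlapped widely (log2 fold change 1.30, SE 1.24, limma adjusted p = 0.544). The summed FPKM of 8 skeletal muscle markers was 42.5, 148, 955 and 2423 in control and 1476, 2260, 112 and 7364 in CKO. The 8 libraries fell in the same order by Eef1a2 as by these markers, from control replicate 1 at the bottom to CKO replicate 4 at the top. With the mean muscle marker level as a covariate the log2 fold change of Eef1a2 was -0.46.

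Reads of both eEF1A genes can be told apart by sequence. Their coding sequences in GENCODE M21 (GRCm38) were 79.9% identical, with no identical run longer than 23 bases. The first 90 coding bases of each, both read from the minus strand, are shown because one is the most abundant factor and the other the most variable. Capitals mark the 15 positions that differ.
Eef1a1: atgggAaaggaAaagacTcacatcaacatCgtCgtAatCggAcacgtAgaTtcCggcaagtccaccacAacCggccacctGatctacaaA
Eef1a2: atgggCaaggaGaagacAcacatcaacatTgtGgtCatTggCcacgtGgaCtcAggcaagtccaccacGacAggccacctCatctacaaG
The same comparison gave 77.9% for Eif4a1 and Eif4a2, 72.7% for Eif5a and Eif5a2, 81.1% for Eif1 and Eif1b, 85.6% for Eif1a and Eif1ax, and 65.5% for Eif4ebp1 and Eif4ebp2. Eif3j1 and Eif3j2 were the exception at 99.2%, with an identical run of 781 bases, so the authors' counting could split their reads and the value of each is uncertain.

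Eef2, the translocase, had 696, 853, 758 and 816 FPKM in control and 654, 692, 794 and 809 FPKM in CKO. The groups overlapped, with means of 781 ± 68.6 and 737 ± 75.8 FPKM (SD, n = 4 each) and a log2 fold change of -0.08 (SE 0.23, limma adjusted p = 0.853). With quantile normalization Eef2 was the single factor called, and it was lower, as were 1.73% of all genes (log2 fold change -1.07, limma adjusted p = 0.0459). Its kinase Eef2k, which phosphorylates and inhibits eEF2, had 7.11 to 10.6 FPKM in control and 5.85 to 8.70 FPKM in CKO, which overlapped (log2 fold change -0.19).

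**Figure D2:**
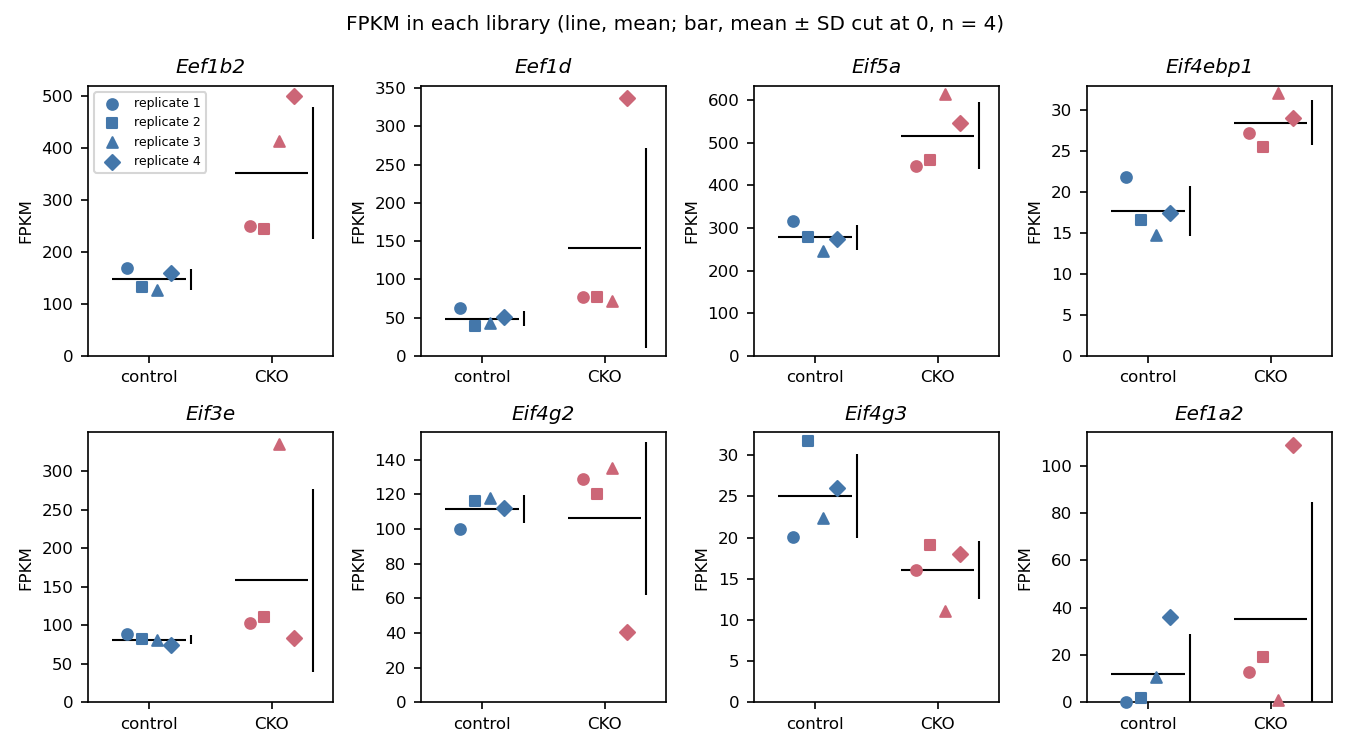
FPKM of 8 translation factor genes in each library; marker shape gives the replicate number, the horizontal line the mean and the vertical bar the mean ± SD, cut at 0 (n = 4). Eef1b2 and Eif5a lie higher in all CKO libraries, Eif4g3 lies lower in all, and in Eef1d, Eif3e and Eef1a2 a single CKO library lies far above the others.

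Among the late-acting and ribosome-joining factors, Eif5a came closest to the threshold without passing it. eIF5A carries the modified residue hypusine and helps ribosomes through stretches that stall, such as runs of proline, which collagen is rich in. Eif5a (ENSMUSG00000078812, GRCm38 chromosome 11, 69916714 to 69921958, minus strand) had 317, 278, 247 and 274 FPKM in control and 446, 460, 615 and 545 FPKM in CKO. No CKO library reached down to the control range. The means were 279 ± 29.2 and 517 ± 78.9 FPKM (SD, n = 4 each), with a log2 fold change of 0.88 (SE 0.22, limma adjusted p = 0.0506), which was 0.41 with equal totals and 0.02 with quantile normalization. Its paralog Eif5a2 was far lower, at 2.24 to 4.15 FPKM in control and 3.57, 3.41, 4.83 and 0.442 FPKM in CKO, and replicate 4 stood below all other libraries. Eif6, which keeps the large ribosomal subunit from joining too early, had 26.9 to 34.96 FPKM in control and 41.9, 43.4, 40.4 and 115 FPKM in CKO, without overlap (log2 fold change 0.76, SE 0.32, limma adjusted p = 0.175).

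The factors of start-codon selection, initiator tRNA binding and subunit joining had a log2 fold change above 0 in all 10 tested, with a median of 0.54. With equal totals 6 of 10 were above 0, and with quantile normalization 8 of 10. With the length trend removed 8 of 10 were above 0 (median 0.29), and without CKO replicate 3 also 8 of 10 (median 0.34). Groups were apart in 3 of the 10, where 12.7% of all genes had every CKO library above. They were apart in 2 with median-of-ratios scaling, and in 1 each with quantile normalization, equal totals and the length trend removed. Without control replicate 1 they were apart in 6, and without CKO replicate 4 in 8. Fewer libraries overlap less readily, and no share of all genes was taken for those fits, nor for median-of-ratios scaling and quantile normalization. None passed by limma, and 5 had an unadjusted p under 0.05. Eif1, which guards against wrong start codons and was the most abundant of them, had 184, 156, 157 and 167 FPKM in control and 264, 222, 300 and 361 FPKM in CKO. The groups did not overlap (log2 fold change 0.77, SE 0.22, limma adjusted p = 0.0675). Its close copy Eif1b had 27.2 to 34.6 FPKM in control and 39.6 to 56.1 FPKM in CKO, also without overlap. The X-linked scanning factor Eif1ax had 12.1 to 12.7 FPKM in control and 15.4 to 24.8 FPKM in CKO, without overlap (log2 fold change 0.53, SE 0.20, limma adjusted p = 0.129), whereas its autosomal copy Eif1a had 15.2 to 16.7 and 10.4 to 20.9 FPKM, with overlap (log2 fold change 0.02).

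For eIF2 itself, the ranges overlapped. Eif2s1, the alpha subunit that stress kinases phosphorylate, had 9.66 to 16.4 FPKM in control and 17.0, 20.5, 30.9 and 9.11 FPKM in CKO. Eif2s2, the beta subunit, had 30.1 to 41.1 FPKM in control and 50.3, 46.7, 102 and 39.8 FPKM in CKO. In both genes CKO replicate 3 was the highest library and CKO replicate 4 fell within or below the control range. Eif5, which triggers GTP hydrolysis by eIF2, had 46.6 to 67.4 FPKM in control and 83.0, 77.5, 83.8 and 21.6 FPKM in CKO, so 3 CKO libraries lay above all controls and CKO replicate 4 below them all. Eif5b, which joins the ribosomal subunits, went the other way in that library, with 8.77 to 11.7 FPKM in control and 11.1, 12.8, 13.4 and 23.7 FPKM in CKO. Eif2a and Eif2d, alternative binders of initiator tRNA, had log2 fold changes of 0.19 and 0.33.

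eIF2B is the exchange factor that recycles eIF2. All 5 subunit genes had a log2 fold change above 0, with a median of 0.46, as did 3 of 5 with equal totals. None passed by limma, and 1 had an unadjusted p under 0.05. Eif2b2, the most abundant, had 18.3, 17.5, 15.4 and 14.5 FPKM in control and 21.2, 24, 27.7 and 52 FPKM in CKO. The groups did not overlap and CKO replicate 4 was the highest (log2 fold change 0.80, SE 0.27, limma adjusted p = 0.104). Eif2b4 also did not overlap, at 8.61 to 11.3 and 11.8 to 29.8 FPKM. For Eif2b5, the catalytic subunit, CKO replicates 1 to 3 had 16.5, 16.9 and 22.1 FPKM against 14.96 to 17.6 FPKM in control, and CKO replicate 4 had 34.6 FPKM.

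eIF3 is the largest initiation factor. For its large core subunits Eif3a, Eif3b and Eif3c the log2 fold changes were -0.14, 0.31 and 0.10, and none had groups apart. For the other 11 genes they ran from 0.16 for Eif3j2 to 0.88, with a median of 0.69, and 4 of them, Eif3f, Eif3j1, Eif3j2 and Eif3l, lay below Eif3b. In 6 of the 11 all CKO libraries lay above all controls, as in 12.7% of all genes. This held for 2 with equal totals, where it did in 3.73% of all genes, and for 1 with the length trend removed, where it did in 5.53%. It held for 4 with median-of-ratios scaling and 1 with quantile normalization, for which no share of all genes was taken. Without CKO replicate 3 the median of the 11 was 0.40. Without CKO replicate 4 it was 0.60, with 10 above 0 and 9 with groups apart, for which no share of all genes was taken. The difference between both sets was not tested. With equal totals 7 of these 11 and 0 of the large 3 were above 0, and with quantile normalization 9 of 11 and 0 of 3. With the trend against transcript length removed the medians were 0.12 and 0.15, so their order turned. None of the 14 passed by limma, and 6, all among the 11, had an unadjusted p under 0.05.

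Within eIF3, Eif3k had the highest mean, with 114, 116, 108 and 135 FPKM in control and 163, 149, 291 and 317 FPKM in CKO. Its groups did not overlap (log2 fold change 0.88, SE 0.28, limma adjusted p = 0.0903). Eif3m had the steadiest controls of the complex, at 53.7, 52.6, 52.4 and 53.8 FPKM, against 74.4, 78.3, 182 and 88.8 FPKM in CKO. No CKO library overlapped them, and replicate 3 was the highest (log2 fold change 0.88, SE 0.28, limma adjusted p = 0.0890). Eif3i had 65.5 to 78.6 FPKM in control and 104, 102, 168 and 168 FPKM in CKO, also without overlap (log2 fold change 0.82). Other subunits had 1 CKO library far above the rest. Eif3e had 104, 111, 335 and 83.6 FPKM in CKO against 74.2 to 88.2 FPKM in control, and Eif3h had 146, 159, 339 and 123 FPKM against 99.8 to 127 FPKM. In both, CKO replicates 1 to 3 lay above all controls, CKO replicate 3 was the highest and CKO replicate 4 fell within the control range. Without CKO replicate 3 the log2 fold changes of Eif3e and Eif3h were 0.28 and 0.38, against 0.71 and 0.69 with it. Eif3f had 89.5, 91.5, 93.5 and 249 FPKM in CKO against 77.1 to 114 FPKM in control, so the high library there was CKO replicate 4, without which its log2 fold change was -0.07, against 0.29.

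**Figure D3:**
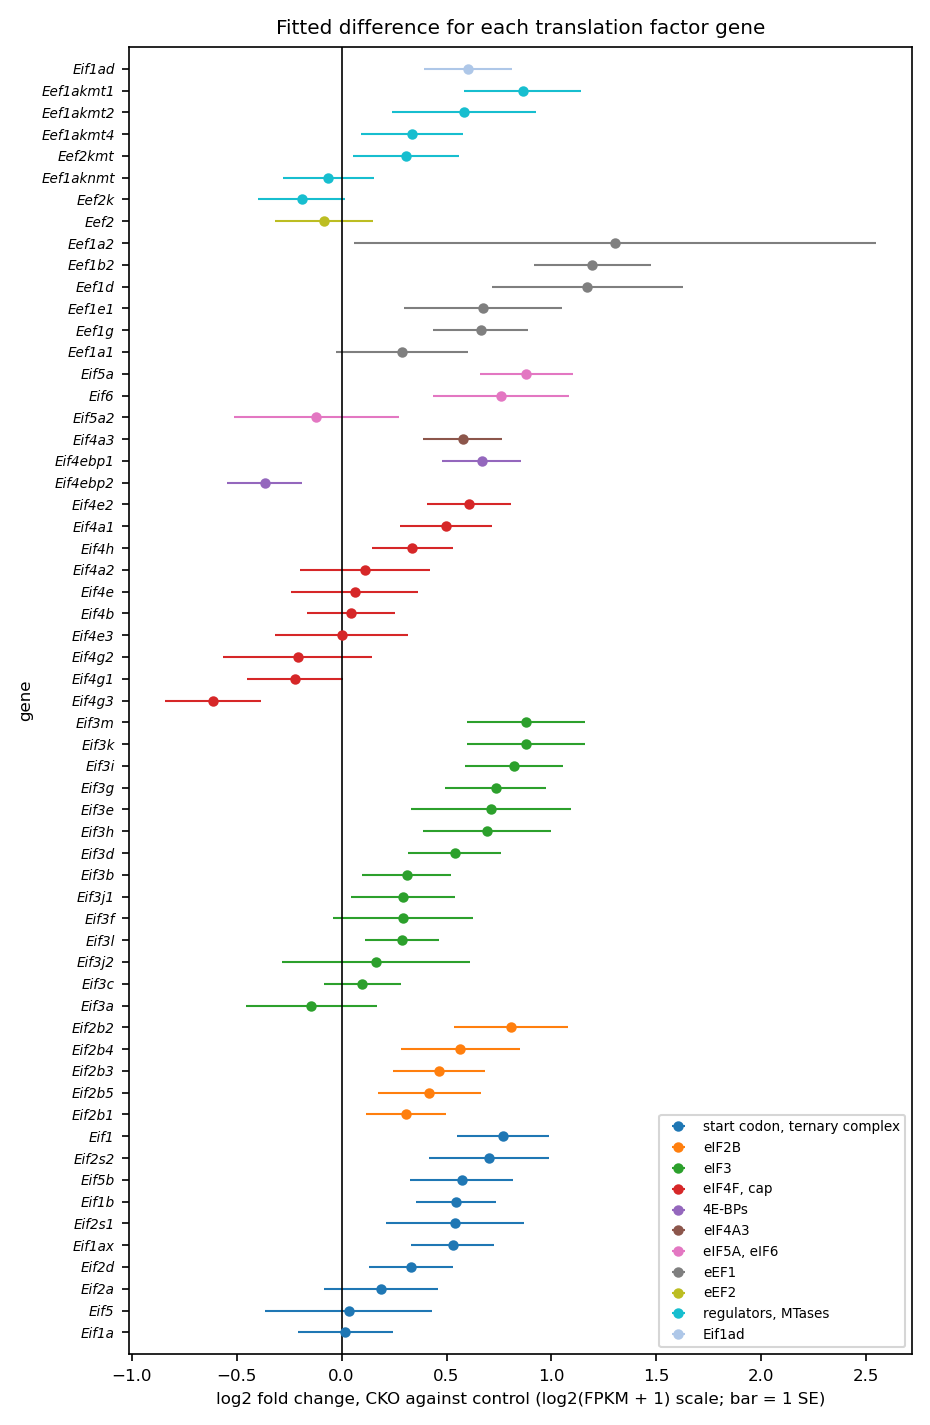
Log2 fold change (log2(FPKM + 1) scale) of CKO against control for the 59 tested translation factor genes, grouped and coloured by role; bars are 1 SE of the limma fit on 4 against 4 libraries. Values run from -0.61 for Eif4g3 to 1.30 for Eef1a2, whose SE of 1.24 is the widest.

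eIF4F holds the cap-binding protein eIF4E, the scaffold eIF4G and the helicase eIF4A. Its 10 genes had a median log2 fold change of 0.05, with 7 above 0, but 2 of 10 were above 0 with equal totals and 2 of 10 with quantile normalization. With the length trend removed 8 of 10 were (median 0.17). Single libraries turned this median: it was -0.07 without CKO replicate 3 (3 of 10 above 0), -0.02 without control replicate 3 (4 of 10), -0.0073 without CKO replicate 1 (4 of 10), 0.02 without CKO replicate 2 (5 of 10), 0.10 without control replicate 1 (6 of 10) and 0.28 without CKO replicate 4 (8 of 10). None passed by limma, and 2 were higher and 1 lower at an unadjusted p under 0.05. The lowest log2 fold changes of the group were those of the scaffolds. Eif4g3 (ENSMUSG00000028760, GRCm38 chromosome 4, 137993022 to 138208508, plus strand) had 20.04, 31.7, 22.3 and 26 FPKM in control and 16, 19.1, 11.1 and 18 FPKM in CKO. Every CKO library lay below every control library. The means were 25 ± 5.1 and 16.1 ± 3.54 FPKM (SD, n = 4 each), with a log2 fold change of -0.61 (SE 0.23, limma adjusted p = 0.129), which lay between -1.06 with equal totals and -0.22 with the length trend removed. Eif4g1, the main scaffold, had 62.3 to 73.4 FPKM in control and 68.2, 66.7, 63.5 and 37.4 FPKM in CKO. Eif4g2, a relative of eIF4G that lacks the eIF4E site, had 99.8 to 118 FPKM in control and 129, 120, 135 and 40.8 FPKM in CKO. In both genes the library below the control range was CKO replicate 4, and the log2 fold change of Eif4g2 without it was 0.20, against -0.21 with all libraries.

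Of the helicases, Eif4a1 had 222, 166, 157 and 169 FPKM in control and 225, 236, 314 and 234 FPKM in CKO, which did not overlap by a narrow margin (log2 fold change 0.50, SE 0.22, limma adjusted p = 0.187; -0.20 with quantile normalization). Eif4a2 had 52.0 to 55.3 FPKM in control and 75.2, 65.1, 84.9 and 28.5 FPKM in CKO. The ratio of Eif4a1 to Eif4a2 was 3.02 to 4.02 in control, 2.996, 3.63 and 3.70 in CKO replicates 1 to 3 and 8.23 in CKO replicate 4. Eif4a3, a related helicase of the exon junction complex and not of eIF4F, had 44.6 to 51.4 FPKM in control and 60.3 to 89.1 FPKM in CKO, without overlap (log2 fold change 0.58, SE 0.19, limma adjusted p = 0.0954).

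Of the cap-binding proteins, Eif4e had 12.3, 13.2, 11.7 and 23.7 FPKM in control and 18.0, 15.9, 21.3 and 8.88 FPKM in CKO, with wide overlap (log2 fold change 0.06). Eif4e2, a cap-binding homologue that can repress translation, had 20.7 to 26.5 FPKM in control and 29.8 to 47.4 FPKM in CKO, without overlap (log2 fold change 0.61, SE 0.20, limma adjusted p = 0.1004). Eif4e3 had 4.95 to 8.97 and 2.76 to 8.63 FPKM, with a log2 fold change of 0.00. The helper factors Eif4b and Eif4h, which stimulate the helicase, had log2 fold changes of 0.04 and 0.34.

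The eIF4E-binding proteins, which block eIF4E until mTORC1 phosphorylates them, differed in opposite directions between the groups. Eif4ebp1 (ENSMUSG00000031490, GRCm38 chromosome 8, 27260329 to 27276674, plus strand) had 21.9, 16.6, 14.8 and 17.5 FPKM in control and 27.2, 25.6, 32.1 and 29.1 FPKM in CKO. Eif4ebp2 (ENSMUSG00000020091, GRCm38 chromosome 10, 61428491 to 61452661, minus strand) had 29.7, 36.3, 33.3 and 31.5 FPKM in control and 26.6, 27.8, 20.8 and 25.8 FPKM in CKO. The groups did not overlap in either gene as deposited. They overlapped in both with median-of-ratios scaling and with the length trend removed, and in Eif4ebp1 with quantile normalization and with equal totals. The log2 fold changes were 0.67 (SE 0.19, limma adjusted p = 0.0664) and -0.37 (SE 0.18, limma adjusted p = 0.233), so neither passed. The ratio of Eif4ebp1 to Eif4ebp2, which does not depend on the library total, was 0.737, 0.459, 0.443 and 0.555 in control and 1.03, 0.920, 1.54 and 1.13 in CKO, without overlap. The longest coding transcript of Eif4ebp1 has 1997 bases and that of Eif4ebp2 5784 bases, and with the length trend removed the log2 fold changes were 0.43 and -0.08.

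Enzymes that modify the elongation factors were expressed at low levels. Eef1akmt1, a lysine methyltransferase of eEF1A, had 7.36, 6.34, 6.39 and 7.46 FPKM in control and 8.34, 10.7, 15.2 and 22.7 FPKM in CKO. The groups did not overlap (log2 fold change 0.86, SE 0.28, limma adjusted p = 0.0939; -0.05 with the length trend removed). Eef1akmt2 had 5.17 to 7.00 FPKM in control and 9.09, 7.62, 20.9 and 5.18 FPKM in CKO, with CKO replicate 3 the highest. Eef1akmt4, Eef1aknmt and the eEF2 methyltransferase Eef2kmt overlapped, with log2 fold changes of 0.33, -0.06 and 0.31. Eef1akmt3 was the factor left out for low values, at 1.56, 0.953, 1.42 and 1.58 FPKM in control and 0.814, 0.917, 0.988 and 0.657 FPKM in CKO. Eif1ad, a protein with an eIF1A domain, had 10.1 to 14.7 FPKM in control and 13.6 to 21.7 FPKM in CKO, with overlap (log2 fold change 0.60, limma adjusted p = 0.111).

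Log2 fold changes ran with transcript length. The Spearman correlation between log2 fold change and the length of the longest coding transcript was -0.70 over the 59 factors and -0.63 over the 12086 genes with a length, all measured in the same 8 libraries. In the 20 shortest factors (880 to 1939 bases) the median log2 fold change was 0.72 and all 20 were above 0. In the 20 longest (3089 to 8134 bases) it was 0.04, with 11 above 0. Eif5b (7797 bases) and Eif1ax (5172 bases) were the longest factors with a log2 fold change above 0.5, at 0.57 and 0.53. With the trend of all genes against length removed, the median of the factors was 0.18 and that of all genes -0.02, 6 factors (10.2%) had all CKO libraries above all controls, where 5.53% of all genes did, and 8 of 59 (13.6%) were higher at an unadjusted p under 0.05, where 7.64% were. The part of length in the results was not tested further.

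**Figure D4:**
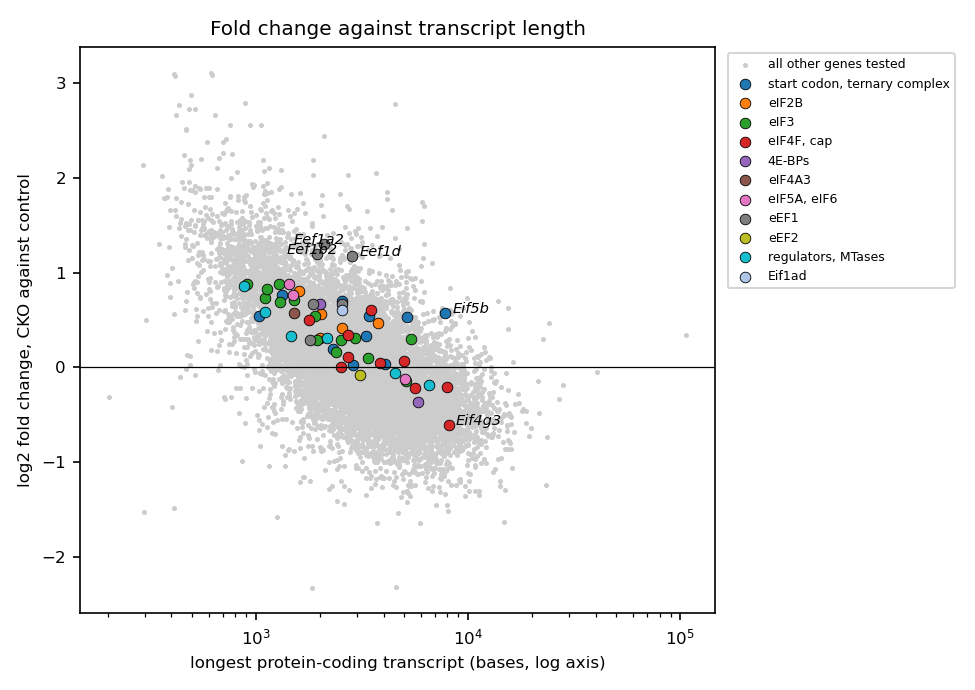
Log2 fold change of CKO against control plotted against the bases in the gene's longest coding transcript (log axis), for the translation factors in colour by role and all other tested genes in grey. The factors slope downward with length (Spearman -0.70), from short genes such as Eif3k to Eif4g3, and Eif5b lies above the slope.

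CKO replicates 3 and 4 departed from replicates 1 and 2 in different factors. Relative to the mean of CKO replicates 1 and 2, CKO replicate 4 was more than 1 log2 unit higher in 10 factors and more than 1 lower in 9, and CKO replicate 3 was more than 1 higher in 5 and lower in 1. The largest departures of replicate 4 were Eef1a2, Eef1d, Eif3f and Eif6 upward and Eif3j2, Eif5, Eif5a2 and Eif4g2 downward. Those of replicate 3 were Eif3e, Eif3m and Eef1akmt2 upward and Eef1a2 downward. The departures of replicate 4 followed the GC content of the longest coding transcript, with a Spearman correlation of 0.69 over the 59 factors and 0.54 over all genes with a value. Of the 20 factors with the lowest GC content (38.8% to 46.2%) 3 were higher in replicate 4 than in replicates 1 and 2, and of the 20 with the highest (52.3% to 60.6%) 16 were. For replicate 3 the correlation with GC content was -0.27 and that with length -0.47. The SD of log2(FPKM + 1) was larger in CKO than in control in 54 of the 59 factors, or 91.5%, and in 78.5% of all genes tested.

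**Figure D5:**
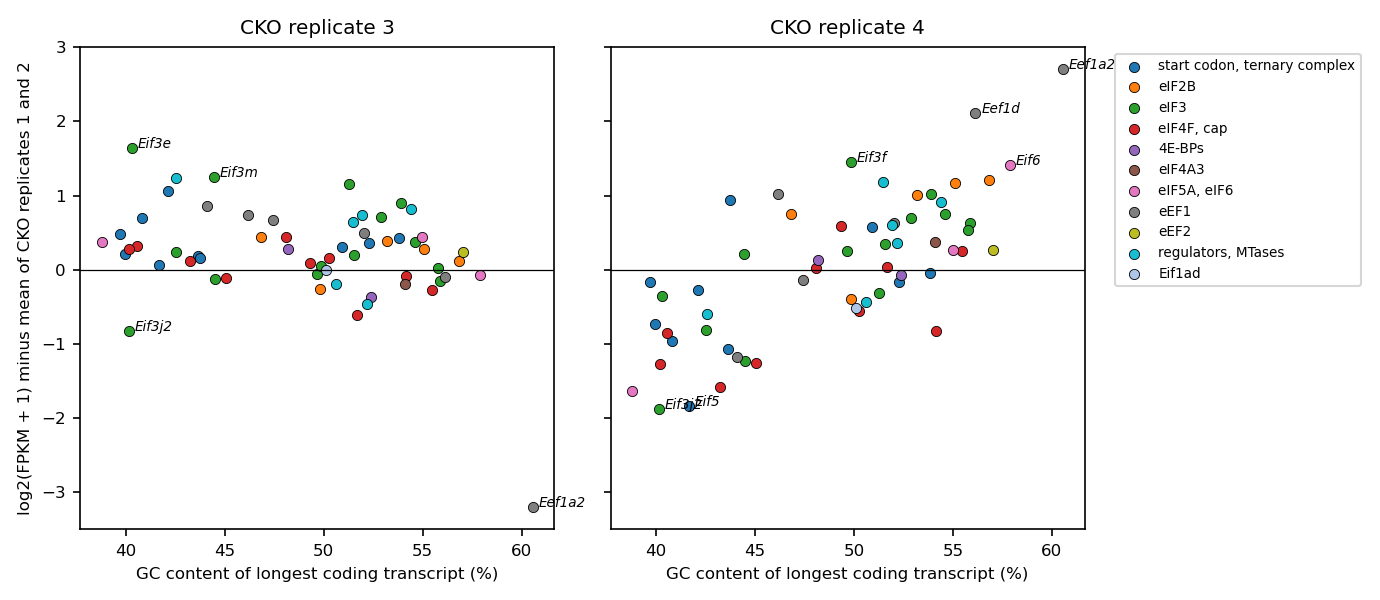
Difference in log2(FPKM + 1) of CKO replicate 3 (left) and CKO replicate 4 (right) from the mean of CKO replicates 1 and 2, against GC content, for the 59 tested translation factors coloured by role. The points of replicate 4 slope upward from Eif5a2 to Eef1a2 (Spearman 0.69), and those of replicate 3 show a weak slope the other way (-0.27).

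The result without these libraries differed in count but not in the direction of the median. In CKO replicates 1 and 2 alone, 39 of 59 factors (66.1%) had both libraries above all 4 controls, where 31.6% of all genes did, and 4 (6.78%) had both below, where 9.17% did. Without CKO replicate 4, limma called 14 factors (23.7%), all higher, where 12% of all genes were called higher and 2.75% lower. Among them were Eif5a (log2 fold change 0.85, limma adjusted p = 0.0305), Eif1 (0.65, adjusted p = 0.0382), Eif4ebp1 (0.66, adjusted p = 0.0364), Eif2b2 and Eif4a3. Without CKO replicates 3 and 4 together, a choice made after the data were seen, 0 factors and 0 genes were called by limma, 30 factors (50.8%) were higher and 1 (1.69%) lower at an unadjusted p under 0.05, where 22.9% and 5.65% of all genes were, and the median of the factors was 0.38, against 0.16 for all genes.

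Many mRNAs of the translation apparatus begin with a 5′ terminal oligopyrimidine tract (TOP), through which mTORC1 signalling controls their translation. A start with a C followed by at least 4 pyrimidines was searched on the transcribed strand at base 1 of each complete coding transcript of the GENCODE basic set. It was found for 7 of the 60 factors, or 11.7%, and for 4.64% of the 13325 genes of the table with such a transcript. Annotated starts can differ from those used in bone, and no match says only that these letters are not at the annotated start. The starts of the elongation and eIF3 genes among the 7 are shown, since they include both genes with the highest log2 fold changes after Eef1a2, with the pyrimidine tract in capitals.
Eef1b2: CTTTTTTTCCCTCagcgctggccg
Eef1d: CTCTCCTTTgcagtcctgagctcg
Eif3m: CTTTTCCggtcggcgtgtttctgg
Eif3f: CTCTTTCTCggcaag
These starts lie at GRCm38 chromosome 1 position 63177130 (plus strand), chromosome 15 position 75909306 (minus), chromosome 2 position 105017043 (minus) and chromosome 7 position 108934417 (plus). Their log2 fold changes were 1.2, 1.17, 0.88 and 0.29. Those of the other matches, Eif2s1, Eif4a2 and Eef1aknmt, were 0.54, 0.11 and -0.06. The median was 0.54 over the 7 and 0.44 over the other 52 tested, which lack only a match at an annotated start. A gene counted if any of its transcripts matched. The matching starts of Eef1b2, Eef1d, Eif3m and Eif4a2 are not the outermost starts of their genes.

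Other genes of the pathway gave few calls by limma outside the ribosomal proteins. None of 9 genes of the eIF2 kinases and the stress response passed, and 1 had an unadjusted p under 0.05. It was Ppp1r15a, which reverses eIF2 phosphorylation, with 29.2, 17.2, 14.5 and 10.2 FPKM in control and 70.4, 44.0, 50.1 and 24.4 FPKM in CKO, which overlapped (log2 fold change 1.36, SE 0.36, limma adjusted p = 0.0584). Atf4, whose mRNA is translated when eIF2 is phosphorylated, had 96.7 ± 12.8 and 112 ± 21.8 FPKM (SD, n = 4 each; log2 fold change 0.20).

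None of 15 genes of mTORC1 and translation signalling passed (median log2 fold change -0.04), and 1 was higher and 1 lower at an unadjusted p under 0.05. The higher was Rps6, a ribosomal protein and target of S6 kinase (log2 fold change 1.12, limma adjusted p = 0.0536), and the lower was Deptor, an inhibitor of mTOR (-0.70, adjusted p = 0.130). None of 12 genes of termination, recycling and poly(A) binding passed (median 0.09), and 2 were higher at an unadjusted p under 0.05. None of 22 genes of cytosolic aminoacyl-tRNA synthetases and their scaffolds passed (median 0.29), with 3 higher and 1 lower at an unadjusted p under 0.05 and 20 of 22 above 0, but 3 of 22 above 0 with equal totals. Aimp1, a scaffold of the multi-synthetase complex to which Eef1e1 belongs, had 30.5 ± 4.29 and 53.0 ± 8.60 FPKM (SD, n = 4 each; log2 fold change 0.77, limma adjusted p = 0.0534).

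Ribosomal proteins are the factors' partners on the ribosome. Of 79 cytosolic ribosomal protein genes, 31 passed as higher and none as lower, where 3.88% of all genes passed as higher and 0.651% as lower. Their median log2 fold change was 1.32, against 0.46 for the translation factors, in transcripts with a median of 914 bases, against 2515. With median-of-ratios scaling the median was 1.33 with 0 passed, and with equal totals 0.89 with 0 passed. With quantile normalization it was 0.41 with 1 passed and 68 of 79 above 0, and with the length trend removed 0.42 with 0 passed. No tested gene of any kind passed with median-of-ratios scaling, equal totals or the length trend removed.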

How the data were processed

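The members, gene lists and tests were chosen with earlier results of these data known. Per the file headers, the deposited table gives FPKM for each of 8 libraries, computed by the authors, with the authors' p-value and the authors' log2 fold change per gene. The labels' protocols name TRIzol extraction and a NEBNext Ultra RNA library kit. Among the tools in the submitters' processing notes, which give no role or order, are HISAT2 2.0.5, featureCounts 1.5.0-p3, fastp and CASAVA 1.8, besides DESeq2 1.20.0, and the build is GRCm38. For annotation and strandedness the sources used here give nothing. FPKM keeps no depth, and low values did not fall on whole reads (smallest mean distance 0.222, against 0.25 by chance), so no count model was run.

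For genes reaching 1 FPKM in 4 or more libraries, limma 3.58.1 (R 4.3.3) was fitted to log2(FPKM + 1) with genotype alone and a mean-variance trend in eBayes, and p-values were adjusted by Benjamini-Hochberg at 0.05. The pseudocount makes fold changes of low genes too small. Transcript lengths, GC content and sequences came from GENCODE M21, matched by gene identifier for 13477 of 14457 genes and all 60 members. Coding sequences were aligned globally with Biopython 1.88. Groups came from the sample titles. No libraries held identical values.

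Named genes were those past the threshold, in each role the gene with the highest mean and that with the largest change, and the paralog sets of eEF1A, eIF4A, eIF4E, eIF4G, eIF5A and the eIF4E-binding proteins. Others are described by role and were chosen after their values were seen. Alternatives were other scalings, pseudocount, filters, robust and weighted fits, a replicate block, covariates, removal of the length trend (loess, span 0.4) and leaving out libraries.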

Additional observations from a re-analysis of the deposited data

Results flagged for a closer look

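Among 46 groups of 4 libraries, for the 23 named factors, 5 held a library whose gap to its nearest neighbour on the log2(FPKM + 1) scale exceeded Dixon's 95% limit for the gap as a share of the group's range, and chance flags about 1 in 20 groups. CKO replicate 4 was the low library for Eif4g2 (40.8 FPKM, others 120 to 135), Eif4g1 (37.4 FPKM, others 63.5 to 68.2) and Eif4e3 (2.76 FPKM, others 7.38 to 8.63). CKO replicate 3 was the high library for Eif4a1 (314 FPKM, others 225 to 236). Control replicate 3 was the low library for Eif4a2, at 52.0 FPKM against 54.9 to 55.3.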

How the results depend on the processing

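As reported, 1 factor was called higher and 0 lower, 21 and 2 had groups apart, and the median log2 fold change was 0.46. The number called higher was 0 with median-of-ratios scaling, quantile normalization, equal FPKM totals, no filter or the replicate block. It was also 0 with the Y-linked, marrow or length corrections, or without CKO libraries 3 and 4. In those fits, and with median-of-ratios scaling or equal totals, no gene of any kind was called. Over all genes, 137 were called higher with quantile normalization, 327 with no filter and 249 with the replicate block. The number of factors called higher was 3 of 54 with the filter at 5 FPKM, where 705 of 8521 genes were. It was 12 of 59 with the muscle covariate (all genes 1293 of 12748) and 36 of 59 with array weights (4104 of 12748). The number called lower was 1 with quantile normalization, where 221 of 12748 genes were, and 2 with array weights, where 1901 were. Calls of the fits with 1 library in a group are not counted here. Groups apart, higher then lower, numbered 6 and 4 with equal totals (all genes 3.73% and 17.8%) and 39 and 4 without CKO libraries 3 and 4 (all genes 31.6% and 9.17%). They numbered 6 and 0 with the length trend removed, where 5.53% of all genes were apart and higher. They numbered 4 and 6 with quantile normalization, and 0 were lower with median-of-ratios scaling. For both of these scalings, and for lower genes with the length trend removed, no share of all genes was taken to read the counts against. The median was 0.14, 0.026, 0.37, 0.36 and 0.18 with quantile normalization, equal totals, the Y-linked covariate, the marrow covariate and the length trend removed, 0.38 without CKO libraries 3 and 4, 0.31 among libraries without Y-linked expression and 0.36 among those with it, each of which has 1 library in a group. Over the fits that left out 1 library, 0 to 14 were called higher, 0 lower, 21 to 35 and 2 had groups apart, and the median was 0.38 to 0.52. Where 0 factors were called higher, none of all 12748 genes tested was called. No share of all genes with groups apart was taken for these fits, and fewer libraries overlap less readily. The cause of the shifts between settings was not tested.

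The call of Eef1b2 held in 7 of 22 other settings, with log2 fold changes of 0.49 to 1.35 and limma adjusted p of 0.000371 to 0.852. With the replicate block it was not called (limma adjusted p = 0.0592). Deviations of libraries sharing a replicate number correlated at -0.03, 0.23, -0.26 and 0.43. Libraries with different numbers were not compared in this way, so whether the numbers pair the libraries was not settled.

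Log2 fold changes of uncalled factors changed sign as follows. With quantile normalization they were -0.30 for Eef1a1, -0.20 for Eif4a1, -0.28 for Eif4a2 and -0.029 for Eif4e. With equal totals they were -0.19 for Eef1a1, -0.35 for Eif4a2, -0.38 for Eif4e and -0.39 for Eif4e3. Array weights gave 0.053 for Eif4g1 and 0.12 for Eif4g2. The Y-linked covariate gave 0.062 for Eef2, -0.26 for Eif4a2, -0.078 for Eif4e and -0.61 for Eif4e3, the marrow covariate -0.38 for Eif4e3, and a pseudocount of 0.1 gave -0.015 for Eif4e3. The muscle covariate gave -0.46 for Eef1a2, 0.0090 for Eif4g2 and 0.13 for Eif5a2. With the length trend removed they were -0.020 for Eef1a1, -0.052 for Eef1akmt1, -0.0094 for Eif3k, -0.11 for Eif4e3, 0.055 for Eif4g1, 0.18 for Eif4g2 and 0.11 for Eif5a2. Without CKO libraries 3 and 4 they were 0.0091 for Eif4g1, 0.16 for Eif4g2 and 0.20 for Eif5a2. Leaving out 1 library gave -0.062 to 0.45 for Eif4a2, -0.088 to 0.30 for Eif4e, -0.14 to 0.31 for Eif4e3, -0.37 to 0.20 for Eif4g2 and -0.35 to 0.32 for Eif5a2. No other named factor changed sign in any setting tried.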
